A study of Mus musculus with 13 samples.

Results

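Wild type CD4+ CD8+ double-positive thymocytes were profiled by RNA-seq in 2 libraries, labelled replicates 1 and 2, out of the 13 samples of the series. The levels, ranks and agreement cover all 17849 Ensembl gene rows of these libraries. The cells are mouse thymocytes sorted for both coreceptors, and their genotype is given only as wild type. The series was made to study how the cohesin complex acts on transcription and chromatin folding in thymocytes, and these libraries are its baseline. The knockout RNA libraries, ChIP-seq and Hi-C samples of the series were not used here. The labels give a mixed C57BL\6 and 129 background for ChIP and Hi-C samples and name no strain for the RNA samples. They give no age, no sex, no number of mice per library and no pooling. Spread between the libraries may therefore be technical, and all SDs below rest on n = 2.

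Double-positive cells are the most numerous cells of the thymus. They have assembled a T cell receptor (TCR) beta chain and stopped dividing in bursts, and they now recombine the alpha chain locus with the RAG1 and RAG2 proteins, the enzyme pair that cuts the receptor gene segments. Each cell then tests its receptor on self peptides held by MHC molecules: a useful signal leads to a CD4 or CD8 single-positive cell, and no signal leads to death within days. The stage is known for the survival protein BCL-XL (Bcl2l1) and for the chromatin organiser SATB1.

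Levels are CPM, a gene's counts scaled to a library total of 1000000. They were not divided by transcript length, so they order genes by counts and not by RNA molecules. The total is the sum over the gene rows. Genes without a row, most cytosolic ribosomal protein genes among them, are not part of it. The total was 6633506 counts in replicate 1 and 6500819 in replicate 2, and 3 counts, the floor used per library, corresponded to 0.452 and 0.461 CPM. At least 1 CPM in both libraries was found for 12101 genes (67.8%), and 1610 genes had 0 counts in both. The 66 genes at 1000 CPM or more held 20.5% of the counts, the 2321 genes from 100 to 1000 CPM held 52.7%, and the 6196 genes from 10 to 100 CPM held 25.0%. It took 828 genes in replicate 1 and 796 in replicate 2 to reach 50% of the total. Protein-coding genes took 94.5% and 93.9% of the counts and long noncoding RNAs 2.84% and 3.36%. The 13 protein genes of the mitochondrial genome, counted as a separate class, took 1.35% and 1.26%.

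The defining markers of the sorted cells were among the genes with the most counts. Rag1 ranked 3 in both libraries, at 6837 and 6261 CPM (mean 6549 ± 407, SD, n = 2). Cd8a, the CD8 alpha chain, ranked 13 in both, at 2465 and 2247 CPM (mean 2356 ± 154, SD, n = 2). Themis, an adaptor that tunes TCR signals during positive selection, was at 1727 and 1746 CPM (mean 1737 ± 13.8, SD, n = 2), so its libraries lay almost on each other. Cd4 was at 1605 and 1271 CPM (mean 1438 ± 236, SD, n = 2) and was the marker of these 5 with the widest relative spread, higher in replicate 1. Cd8b1, the CD8 beta chain, was at 1306 and 1176 CPM (mean 1241 ± 92.2, SD, n = 2). Both coreceptors, both chains of CD8 and the recombinase were thus high in each library, as the label of the sort says.

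A list of 30 genes known for the double-positive stage was chosen for this tissue, with earlier results of these data in hand. Its level is therefore a description and no independent support for the identity of the cells. The same holds for the other gene lists below. All 30 had at least 1 CPM in both libraries and 27 had a mean of at least 100 CPM, against 2387 of all 17849 genes. The list's median was 529 CPM, where the median of all gene rows was 8.54 CPM. Rmnd5a, a subunit of a ubiquitin ligase complex, was at 2292 and 2186 CPM. The chemokine receptor gene Ccr9, whose ligand is made by thymic stroma, and the TCR co-stimulator gene Cd28 lay at 1118 and 1099 CPM and at 679.9 and 649 CPM, both named after their values were seen. The 2 members far below the rest were St3gal6 at 6.93 and 7.54 CPM and Chst2 at 1.81 and 2.46 CPM, which encode a sialyltransferase and a carbohydrate sulfotransferase and were also named after their values were seen.

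**Figure D1:**
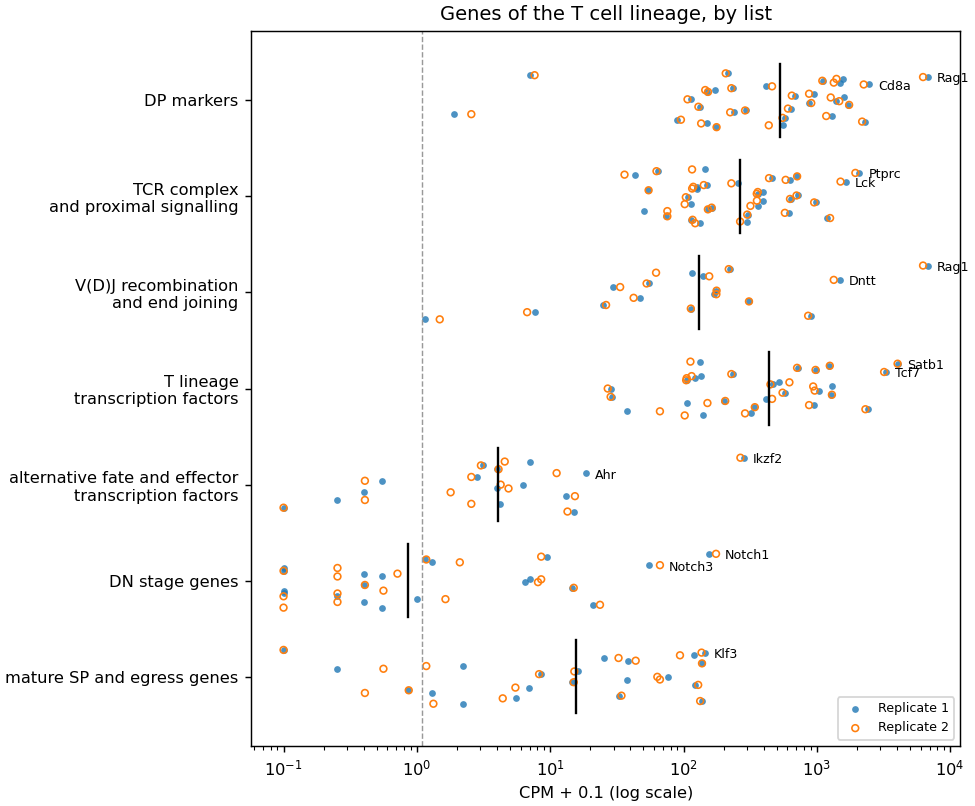
Level of each gene of 7 T cell lists in replicate 1 (filled points) and replicate 2 (open points), as CPM + 0.1 on a log axis, with the median of each list as a black bar and 1 CPM as a dashed line. The double-positive, TCR and T lineage factor lists have medians of 529, 263 and 439 CPM, while the list of the earlier double-negative stage has a median of 0.762 CPM.

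The signalling chains of the antigen receptor and the kinases and adaptors beneath it were well counted. All 32 genes of the list had at least 1 CPM in both libraries, 27 had a mean of at least 100 CPM, and the median was 263 CPM. Ptprc encodes CD45, the phosphatase that sets the kinases free to act, and was at 2088 and 1945 CPM. Lck, the kinase bound to the CD4 and CD8 tails that phosphorylates the receptor first, was at 1648 and 1505 CPM. Rasgrp1, the exchange factor that activates Ras after TCR signals, was at 1185 and 1257 CPM. Cbl, a ubiquitin ligase that limits the signal, was at 990.4 and 954 CPM. The signalling chains of the receptor, Cd3d, Cd3e, Cd3g and Cd247, lay between 266 and 624 CPM, and Zap70, the kinase recruited to them, lay at 163 and 162 CPM; these 5 were named after their values were seen. The member with the lowest mean was Bcl10, which links TCR signals to NF-κB, at 43.0 and 36.0 CPM.

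Constant regions of the TCR beta chain were counted separately. Trbc2 was at 1206 and 1069 CPM and Trbc1 at 620.3 and 591 CPM, a ratio of counts of 1.94 and 1.81 in the 2 libraries. These genes are near-identical copies, so how reads were divided between them is uncertain. The constant genes of the alpha and delta chains had no row here and were not analysed. The gamma chain constant gene Tcrg-C1 was at 1.06 and 0.308 CPM. Of the 20 rows for beta variable segments, 18 had at least 1 CPM in both libraries. Trbv13-2, chosen after its values were seen, had 596 and 563 counts, which is 18.1% and 19.2% of the counts over these rows, the largest share in both libraries. Trbv10 had 0 counts in both.

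The V(D)J recombination list holds the recombinase, its cofactors and the end-joining machinery that reseals the cut ends, and all 16 genes had at least 1 CPM in both libraries. Rag1 is given above, and Rag2, its obligate partner, was at 175 and 177 CPM. Dntt, the polymerase TdT that adds untemplated bases at the joints, was at 1490.2 and 1339 CPM. Hmgb1 and Hmgb2, the DNA-bending cofactors of the recombinase, were at 901 and 861 CPM and at 114 and 113 CPM. Of the end-binding Ku subunits, Xrcc6 (Ku70) was at 308 and 309.7 CPM and Xrcc5 (Ku80) at 24.9 and 26.2 CPM. Lig4, the ligase, was at 223 and 218 CPM. Dclre1c (Artemis), which opens the hairpins, and Prkdc, the kinase that activates it, were at 169.7 and 176 CPM and at 140.5 and 156 CPM. The other joining factors Xrcc4, Paxx, Polm, Nhej1 and Poll lay between 1.06 and 55.0 CPM, with Poll the lowest at 1.06 and 1.38 CPM. Atm, the kinase that answers double-strand breaks, was at 116 and 62.1 CPM. It was higher in replicate 1, and the other 14 genes tested in the list were nearer to each other between libraries.

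The DNA before the starts of these genes differed in CpG content. RefSeq promoter sequences of build GRCm38.p6, a later build than the mm9 of the counts, were matched to genes by symbol. The first window listed for each gene was used, and the 250 bases before the start are printed 5′ to 3′ on the gene's strand. CpG dinucleotides are in capitals in the first 6 sequences, which contrast 4 CpG-poor genes of the receptor program (Rag1, Cd8a, Lck, Cd3d) with a CpG-rich signalling gene (Rasgrp1) and a CpG-rich splicing gene (Son). In the last, the histone gene Hist1h1e, capitals mark the TATAAA box instead. These 7 were chosen after their values were seen. They lie at chr2:101649533-101649782 (Rag1, minus strand), chr6:71373177-71373426 (Cd8a, plus strand), chr4:129573642-129573891 (Lck, minus strand), chr9:44981536-44981785 (Cd3d, plus strand), chr2:117342878-117343127 (Rasgrp1, minus strand), chr16:91647574-91647823 (Son, plus strand) and chr13:23622559-23622808 (Hist1h1e, minus strand).
Rag1: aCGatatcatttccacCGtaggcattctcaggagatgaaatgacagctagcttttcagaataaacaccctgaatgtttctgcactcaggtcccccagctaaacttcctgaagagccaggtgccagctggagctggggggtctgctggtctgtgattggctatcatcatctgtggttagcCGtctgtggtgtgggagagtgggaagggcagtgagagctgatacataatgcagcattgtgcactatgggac
Cd8a: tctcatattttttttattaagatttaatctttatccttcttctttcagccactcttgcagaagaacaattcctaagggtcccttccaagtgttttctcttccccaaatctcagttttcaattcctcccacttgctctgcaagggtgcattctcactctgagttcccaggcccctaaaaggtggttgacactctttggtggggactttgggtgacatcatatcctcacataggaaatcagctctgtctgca
Lck: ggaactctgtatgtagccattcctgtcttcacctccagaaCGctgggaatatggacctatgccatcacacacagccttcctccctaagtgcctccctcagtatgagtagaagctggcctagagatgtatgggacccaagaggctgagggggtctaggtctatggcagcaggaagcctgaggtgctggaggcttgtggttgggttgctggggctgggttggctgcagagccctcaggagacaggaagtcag
Cd3d: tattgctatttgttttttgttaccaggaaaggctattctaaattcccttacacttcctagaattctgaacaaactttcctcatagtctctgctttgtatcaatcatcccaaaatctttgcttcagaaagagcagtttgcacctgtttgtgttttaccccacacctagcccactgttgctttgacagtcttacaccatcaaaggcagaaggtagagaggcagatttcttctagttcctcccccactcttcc
Rasgrp1: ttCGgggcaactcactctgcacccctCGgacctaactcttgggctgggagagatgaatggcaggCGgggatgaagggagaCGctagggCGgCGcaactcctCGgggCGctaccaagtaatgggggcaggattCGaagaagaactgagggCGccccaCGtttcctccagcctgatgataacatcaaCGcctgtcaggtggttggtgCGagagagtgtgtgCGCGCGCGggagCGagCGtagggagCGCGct
Son: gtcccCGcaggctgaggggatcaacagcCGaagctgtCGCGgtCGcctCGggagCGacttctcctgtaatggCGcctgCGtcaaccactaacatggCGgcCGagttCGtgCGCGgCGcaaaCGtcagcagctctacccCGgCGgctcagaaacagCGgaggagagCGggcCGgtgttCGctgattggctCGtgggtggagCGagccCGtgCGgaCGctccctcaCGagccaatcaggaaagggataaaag
Hist1h1e: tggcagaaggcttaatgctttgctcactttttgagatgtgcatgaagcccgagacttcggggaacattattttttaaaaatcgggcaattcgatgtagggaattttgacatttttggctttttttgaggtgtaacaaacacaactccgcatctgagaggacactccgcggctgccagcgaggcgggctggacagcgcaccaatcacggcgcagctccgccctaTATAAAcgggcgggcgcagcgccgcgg

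CpG content was summarised as observed over expected (the number of CpG times the length, divided by the product of the C and G counts), for sets of protein-coding genes in which at least 80% of genes had a window. Rag1 had 3 CpG and a ratio of 0.190, Lck 1 CpG and 0.0514, and Cd8a and Cd3d had 0 CpG. Rasgrp1 had 21 CpG and a ratio of 0.896, and Son 28 CpG and 1.07. Among 28 of the 32 TCR signalling genes with a window, the median ratio was 0.318 and 17 genes (60.7%) were under 0.4. Among the 1932 of 2344 genes at 100 CPM or more with a window, the median was 0.806 and 11.2% were under 0.4. Over all 12232 protein-coding genes with a window, 79.9% of the class and so just short of the 80% limit, the median was 0.675 and 25.6% were under 0.4. The splicing list, with a median level of 435 CPM, had a median ratio of 0.976, with 1 of 28 genes under 0.4. Mediator (2 of 28 under 0.4) and chromatin regulators (2 of 25) were also CpG-rich, the recombination list had 3 of 14 under 0.4, and the glycolysis list 6 of 20. Lists of genes that were mostly low in these cells also held many CpG-poor promoters, with 7 of 17 (41.2%) under 0.4 among double-negative stage genes and 5 of 11 (45.5%) among thymic epithelium markers. No test was made of these shares. Whether thymocytes start transcription at the listed starts was not tested. The double-positive markers (18 of 30 with a window), the T lineage factors (21 of 27) and all classes under 10 CPM fell below 80%, so the check is void for them because too few members have a sequence.

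**Figure D2:**
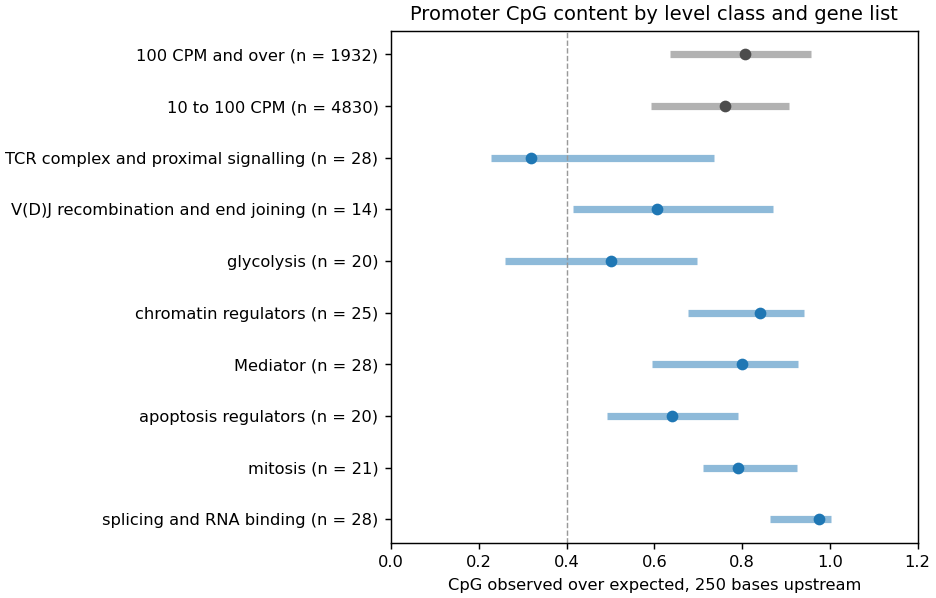
CpG observed over expected in the 250 bases upstream of the first listed start, for 2 level classes (grey) and 8 gene lists (blue). Points are medians, bars run from the lower to the upper quartile, n is the number of genes with a window, and the dashed line is 0.4. The TCR list has its median at 0.318 and the splicing list at 0.976.

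Short motifs were searched in the same windows. TATAAA on the gene's strand, searched from 45 to 16 bases before the start, was in 13 of 38 replication-dependent histone promoters (34.2%), in 1.45% of genes at 100 CPM or more, in 0 of 28 TCR signalling genes and in 1.83% of all matched protein-coding genes. GGGCGG on either strand was in 46.4% of TCR signalling promoters, 60.7% of splicing promoters, 66.1% of genes at 100 CPM or more and 54.4% of all matched protein-coding genes. CCGGAAG on either strand was in 0% of the TCR list, 21.4% of the splicing list, 15.3% of genes at 100 CPM or more and 11.6% of all matched protein-coding genes. Over all first windows in the table, noncoding genes included, the 3 shares were 2.36%, 32.9% and 7.05%. GGGCGG and CCGGAAG each contain a CpG, so their shares are not separate from the CpG content given above. A match describes letters in a window only.

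Transcription factors of the T lineage were present throughout. All 27 had at least 1 CPM in both libraries, 24 had a mean of at least 100 CPM, and the median was 439 CPM. Satb1, which organises chromatin in thymocytes, was at 4096 and 4032 CPM (mean 4064 ± 45.2, SD, n = 2), rank 6 in both libraries. Tcf7, encoding TCF-1, which opens T lineage chromatin downstream of Notch, was at 3299 and 3196 CPM (mean 3247 ± 72.8, SD, n = 2). Ets1 was at 2409 and 2313 CPM and Myb, needed for the survival of double-positive cells, at 1271 and 1297 CPM. Bcl11b, which holds cells to the T lineage, was at 1238 and 1251 CPM. Sox4, an HMG box factor, was at 1299 and 939 CPM, higher in replicate 1. Lef1, the relative of TCF-1, was at 520.4 and 623 CPM, higher in replicate 2. Ikzf1 (Ikaros), Nfatc3, Tcf12 (HEB), Ets2, Elf1 and Ikzf3 (Aiolos) lay between 416 and 1047 CPM. Foxp1, E2f2, Bcl6 and Tox lay between 199.7 and 343 CPM. Runx1, Fli1, Cbfb, Id3, Tcf3 (E2A) and Gata3 lay between 102 and 151 CPM. The lowest were Foxo1, which drives genes of quiescent and mature cells, at 37.8 and 66.5 CPM, Zeb1 at 29.1 and 28.3 CPM and Bach2 at 28.3 and 26.9 CPM.

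Factors that direct other fates were low, with 1 exception. The median of the 15 genes was 3.96 CPM, and 11 had at least 1 CPM in both libraries. The exception was Ikzf2, encoding Helios of the Ikaros family, at 285 and 267 CPM. Next came Ahr at 18.5 and 11.1 CPM, Id2, the inhibitor of E proteins, at 15.1 and 13.4 CPM, and Rora at 13.1 and 15.2 CPM. Runx3, the factor of CD8 lineage choice, was at 6.93 and 4.46 CPM. Zbtb7b (ThPOK), the factor of CD4 lineage choice, was at 0.301 and 1.69 CPM, and Foxp3, of regulatory T cells, at 3.02 and 2.92 CPM. Irf4, Nfil3, Maf, Batf and Prdm1 lay between 2.46 and 6.18 CPM. Tbx21 and Eomes, the T-box factors of effector cells, were at 0.151 and 0.308 CPM and at 0.452 and 0.308 CPM, no more than the 3-count floor. Zbtb16 (PLZF), the factor of innate-like T cells, had 0 counts in both libraries, which allows up to 0.452 and 0.461 CPM.

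Genes of the double-negative stage before were mostly near the floor. Of 21 genes listed 20 had a row, 9 of them had at least 1 CPM in both libraries, and the median was 0.762 CPM. Notch1, the receptor that commits cells to the T lineage, was at 154 and 175 CPM, and Notch3 at 54.9 and 66.5 CPM. Il2ra, encoding the CD25 marker of that stage, was at 20.8 and 23.5 CPM, and Cd44, its other surface marker, at 14.5 and 14.9 CPM. Ptcra, the surrogate alpha chain, was at 9.35 and 8.46 CPM and Kit at 1.06 and 1.08 CPM, both named after their values were seen. Tal1 had 0 counts in both libraries.

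The 21 genes of mature single-positive cells lay between the stages, with a median of 15.5 CPM and 17 genes at 1 CPM or more in both libraries. Klf3 was at 145 and 136 CPM, the class I MHC gene H2-D1 at 137 and 133 CPM and Cd69, the early activation antigen, at 123 and 129 CPM. Genes used to leave the thymus and to live outside it stood near the detection limit. S1pr1, the exit receptor, was at 2.11 and 1.08 CPM, Ccr7 at 5.43 and 4.31 CPM, and Il7r, the survival receptor that double-positive cells are known to lack, at 2.11 and 1.23 CPM. These 3 were named after their values were seen.

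Survival genes were uneven. Of 23 apoptosis regulators with a row, 21 had at least 1 CPM in both libraries, with a median of 34.8 CPM. The protective genes Mcl1 and Bcl2l1 were at 617 and 538 CPM and at 615 and 515 CPM. Bcl2, the protective gene of other T cell stages, named after its values were seen, was at 27.7 and 24.8 CPM. Bcl2l11, encoding the death activator BIM that removes self-reactive thymocytes, was at 288 and 307 CPM. Cflar, the inhibitor of death receptor signalling, was at 226 and 244 CPM.

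Early response genes, which are induced within minutes of a signal or of handling, were present, with 18 of 20 at 1 CPM or more in both libraries and a median of 110 CPM. Tnfaip3, the brake on NF-κB, was at 1058 and 1064 CPM. Btg2 was at 917 and 785 CPM, Klf6 at 681 and 728 CPM and Jund at 614 and 623 CPM. Fos was at 374 and 417 CPM and Egr1, a target of TCR signals, at 35.0 and 40.8 CPM, both named after their values were seen.

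Cycling genes were detected without exception but at modest counts. All 30 replication genes had at least 1 CPM in both libraries, with a median of 27.2 CPM, and all 26 mitosis genes did, with a median of 17.0 CPM. Pcna, the sliding clamp of DNA polymerases, was at 155 and 146 CPM, and the helicase subunit genes Mcm7 and Mcm2 at 132 and 120.3 CPM and at 116 and 121 CPM. Rfc1, the clamp loader, was at 66.5 and 83.4 CPM. Mki67 was at 219 and 214 CPM, Top2a, the topoisomerase of condensing chromosomes, at 134 and 129 CPM, Cenpf at 45.5 and 40.8 CPM and Kif11 at 36.8 and 33.2 CPM. In a bulk sample, fewer cycling cells and less of these RNAs per cell cannot be told apart.

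Replication-dependent histone genes, whose transcripts are made in S phase and end in a stem-loop in place of a poly(A) tail, were counted in these libraries of RNA depleted of ribosomal RNA. Of 65 listed, 42 had a row, and 40 of these averaged 5 CPM or more. Their median was 79.1 CPM. Hist1h1c was at 1562 and 1249 CPM, Hist1h1e at 1123 and 778 CPM, Hist1h1d at 1026 and 725 CPM and Hist3h2a at 385 and 198 CPM. Replicate 1 was the higher in each of these. The same held for 37 of the 40 histone genes tested, against 5397 of all 9926 genes with a mean that high, and 37 was also the number with TMM factors, with DESeq2 size factors and without the 2 genes with the most counts in the total. The median log2 ratio of replicate 2 over 1 was -0.45 for the histones and -0.02 for all genes tested. By the two-sided exact binomial test described below, 30 of the 40 differed by more than counting error, all higher in replicate 1. Of all 9926 genes tested, 1884 (19%) differed in either direction, and 1040 of these were higher in replicate 1. Other lists also leaned to replicate 1, with smaller ratios. Of the other-fate factors tested, 5 of 6 were higher there (median log2 ratio -0.37). Of the translation factors 15 of 19 were (-0.16), 10 of them beyond counting error. So were 29 of 32 nuclear oxidative phosphorylation genes (-0.12), 27 of 32 TCR signalling genes (-0.08) and 13 of 15 glycolysis genes (-0.08). Chromatin regulators leaned to replicate 2, with 10 of 28 higher in replicate 1 (0.09). The number was 19 of 26 for mitosis genes (-0.12) and 13 of 29 for replication genes (0.07). Without the 2 genes with the most counts in the total, the TCR number fell to 20 of 32 and the oxidative phosphorylation number to 27 of 32. Whether the histone list differs from these was not tested. The replication-independent histone genes H3f3b and H3f3a, whose transcripts carry a poly(A) tail, were at 2202 and 1927 CPM and at 515 and 485 CPM. Many histone genes are near-identical, so the division of counts among them is uncertain. What separates the libraries here was not tested.

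**Figure D3:**
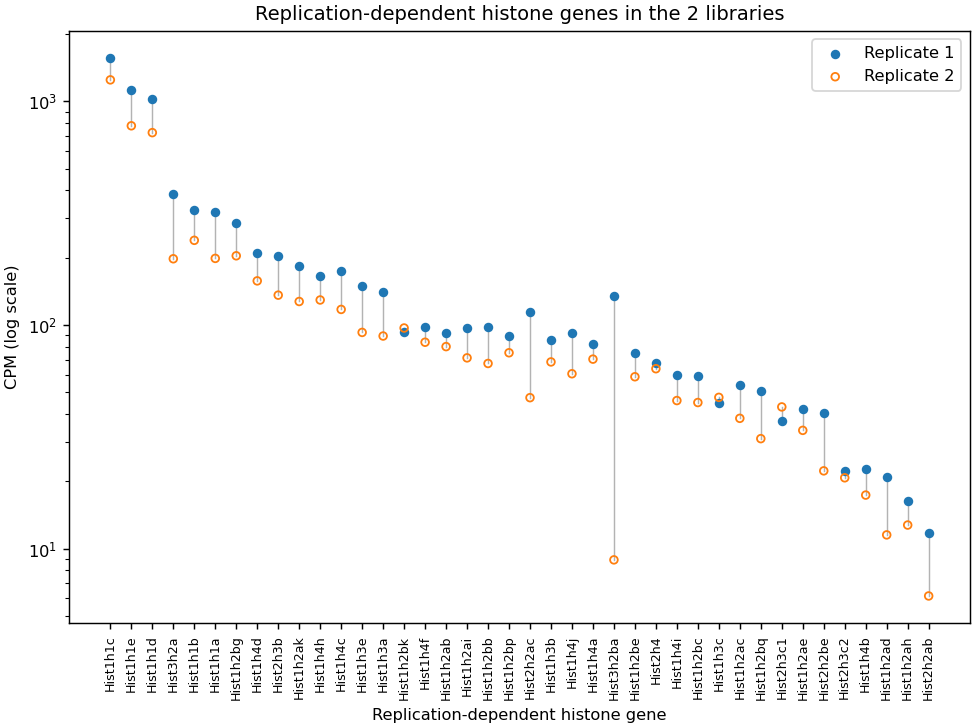
CPM (log axis) of the 40 replication-dependent histone genes that averaged 5 CPM or more, in replicate 1 (filled) and replicate 2 (open), ordered by mean. Replicate 1 is the higher in 37 of 40, and Hist3h2ba shows the widest gap, at 136 and 8.92 CPM.

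The row with the most counts was Lars2, the gene of a mitochondrial leucyl-tRNA synthetase, at 57763 and 73734 CPM. It held 5.78% of the counts in replicate 1 (95% Wilson interval 5.76 to 5.79) and 7.37% in replicate 2 (7.35 to 7.39), intervals that cover counting error only. Malat1, a nuclear noncoding RNA, followed at 21874 and 26263 CPM and made up 77.6% of all long noncoding RNA counts. Lars2 and Malat1 were both higher in replicate 2. Which transcripts the reads of the Lars2 row come from was not tested, so its level may not be that of the Lars2 mRNA. Also among the first 12 rows were mt-Co1, given below, Actb at 6256 and 5068 CPM, Noct (nocturnin), a phosphatase that acts on NADP, at 2984 and 3887 CPM, and the amino acid transporter gene Slc38a6 at 2749 and 3281 CPM. The translation factor genes Eef1a1, which brings tRNAs to the ribosome, and Eif4g2, in the same 12, were at 3860.1 and 3234 CPM and at 2681 and 2356 CPM. Ranks were nearly the same in both libraries: the first 6 rows stood in identical order. Among other noncoding RNAs, Neat1, the scaffold of paraspeckles, was at 1066 and 1323 CPM, the snoRNA host gene Snhg3 at 1043 and 839 CPM and Gm15564 at 687 and 961 CPM.

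Mitochondrial and metabolic genes followed. Of the 13 protein genes of the mitochondrial genome, 12 had a mean of at least 100 CPM. The cytochrome oxidase genes mt-Co1, mt-Co3 and mt-Co2 were at 5395 and 4837 CPM, at 2009.7 and 1907 CPM and at 1881 and 1759 CPM, and mt-Atp6, of the ATP synthase, at 1392 and 1262 CPM. The one exception, mt-Nd4l, a short gene named after its values were seen, was at 0.151 and 0.923 CPM. Of nuclear genes of oxidative phosphorylation, 32 of 32 had at least 1 CPM in both libraries (median 53.2 CPM). Atp5a1 and Atp5b, of the ATP synthase, were at 585 and 517 CPM and at 576 and 512 CPM, Sdha at 196 and 168 CPM and Cox4i1 at 141 and 124 CPM. In glycolysis 18 of 21 genes reached 1 CPM in both (median 45.3 CPM). Ldhb, a lactate dehydrogenase gene, was at 452 and 414 CPM, Pkm at 272 and 266 CPM, Eno1 at 198 and 194 CPM and Ldha at 179 and 169 CPM. Only 1 of 78 cytosolic ribosomal protein genes had a row, and the other 77 were not analysed here.

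RNA processing and chromatin genes held many counts. The splicing list had a median of 435 CPM and 29 of 30 genes at 100 CPM or more. Son, a splicing cofactor of nuclear speckles, was at 1995 and 1871 CPM and the RNA helicase gene Ddx5 at 1631 and 1532 CPM. Sf3b1, of the branch site recognition complex, was at 1257 and 1124 CPM and Ddx17 at 1184 and 1066 CPM. The translation factor list had a median of 259 CPM, with the elongation factor gene Eef2 at 2504 and 2052 CPM and Eif4a2 at 639.6 and 590.4 CPM. Chromatin regulators had a median of 193 CPM. Hdac7, a histone deacetylase that double-positive thymocytes are known to express strongly, was at 836 and 924 CPM, Smarca4, the motor of SWI/SNF remodelling, at 844 and 778 CPM, Ncor1 at 699.9 and 746 CPM and Kdm5a at 547 and 582 CPM.

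Cohesin holds DNA in loops and sister chromatids together, and 16 of 18 genes of its list had at least 1 CPM in both libraries. Rad21, the subunit that closes the ring, was at 299 and 259 CPM (mean 279 ± 28.3, SD, n = 2). Its ring partners Smc3 and Smc1a were at 175 and 179 CPM and at 172 and 161 CPM. Stag2 and Stag1, the alternative subunits that dock on Rad21, were at 438 and 403 CPM and at 197 and 210.1 CPM. The loader subunits Nipbl and Mau2 were at 869.7 and 885 CPM and at 252 and 249 CPM. Wapl, which releases cohesin from DNA, was at 533 and 551 CPM, and the regulators Pds5a and Pds5b at 235 and 224 CPM and at 198 and 208 CPM. Ctcf, the zinc finger protein at which cohesin stops, was at 248 and 245 CPM. Esco1, an acetyltransferase of Smc3, was at 164 and 153 CPM, while its S phase relative Esco2 was at 10.6 and 11.8 CPM and the deacetylase gene Hdac8 at 37.8 and 32.9 CPM. Cdca5 (sororin) was at 6.78 and 5.08 CPM. Subunits of meiotic cohesin were low or at the floor, with Stag3 at 6.78 and 9.08 CPM and Smc1b at 0.452 and 0.615 CPM. Rec8, also meiotic, had 0 counts in replicate 1 and 5.54 CPM in replicate 2.

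Mediator, the complex that links enhancer-bound factors to RNA polymerase II, had all 33 genes at 1 CPM or more in both libraries and a median of 38.3 CPM. Med13, of its kinase module, was at 683 and 659 CPM, Med13l at 349 and 353 CPM, Med1, which binds nuclear receptors, at 334 and 296 CPM and the scaffold gene Med14 at 237 and 237 CPM.

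Markers of other cells that a thymus sort could carry were low where they had a row, apart from a few. No row was present for 4 of 9 neutrophil, 4 of 11 erythroid and platelet and 3 of 13 NK and gamma-delta markers. Rows were also missing for 1 of 12 macrophage and monocyte, 2 of 13 endothelium and fibroblast and 4 of 11 liver and neuron genes. The levels of the genes without a row are unknown, Hbb-b1, S100a8 and Ly6g among them. The medians were 0.876 CPM for 12 B cell markers, 1.14 CPM for 11 macrophage and monocyte markers, 3.31 CPM for 12 dendritic cell markers and 0.0754 CPM for 5 neutrophil markers. They were 0.381 CPM for 10 NK and gamma-delta T cell markers, 1.06 CPM for 7 erythroid and platelet markers, 0.949 CPM for 12 thymic epithelium markers and 1.22 CPM for 11 endothelium and fibroblast markers. A list of 7 liver and neuron genes, which no thymus sort should hold, had a median of 0.454 CPM. Summed over the members with a row, the B cell list came to 33.5 and 33.8 CPM and the macrophage list to 35.6 and 41.5 CPM. The dendritic list came to 39.2 and 36.9 CPM and the erythroid list to 10.7 and 9.23 CPM. The endothelium and fibroblast list came to 232 and 250.3 CPM and the thymic epithelium list to 73.3 and 83.5 CPM, most of it from the few genes given next. The neutrophil list came to 5.88 and 5.08 CPM, the NK and gamma-delta list to 10.9 and 7.38 CPM and the liver and neuron list to 5.13 and 4.46 CPM. The sum over the double-positive list was 28465 and 26592 CPM.

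Single members stood above their lists. Pecam1, an adhesion gene of endothelium and of some leukocytes, was at 166 and 164 CPM, and Vwf at 60.0 and 77.8 CPM, while the endothelial genes Cdh5 and Kdr and the fibroblast gene Pdgfra had 0 counts in both libraries. Ly75, encoding the DEC-205 receptor, was at 48.8 and 57.5 CPM and Psmb11, the thymoproteasome subunit of cortical epithelium, at 16.6 and 17.2 CPM, while Krt14 had 0 counts in both. Itgam was at 19.3 and 26.6 CPM, Cd79b at 126 and 96 counts and Cd74 at 13.6 and 10.5 CPM. Beside these 7 genes, the highest level of any member with a row in either library was 7.08 CPM, that of Xcr1 in replicate 2. The dendritic factor gene Batf3, the neutrophil gene Camp, and Klrk1 and Il23r of the NK and gamma-delta list had 0 counts in both. Ighm, the IgM constant region, named after its values were seen, had 2283 and 2204 counts, 344 and 339 CPM.

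**Figure D4:**
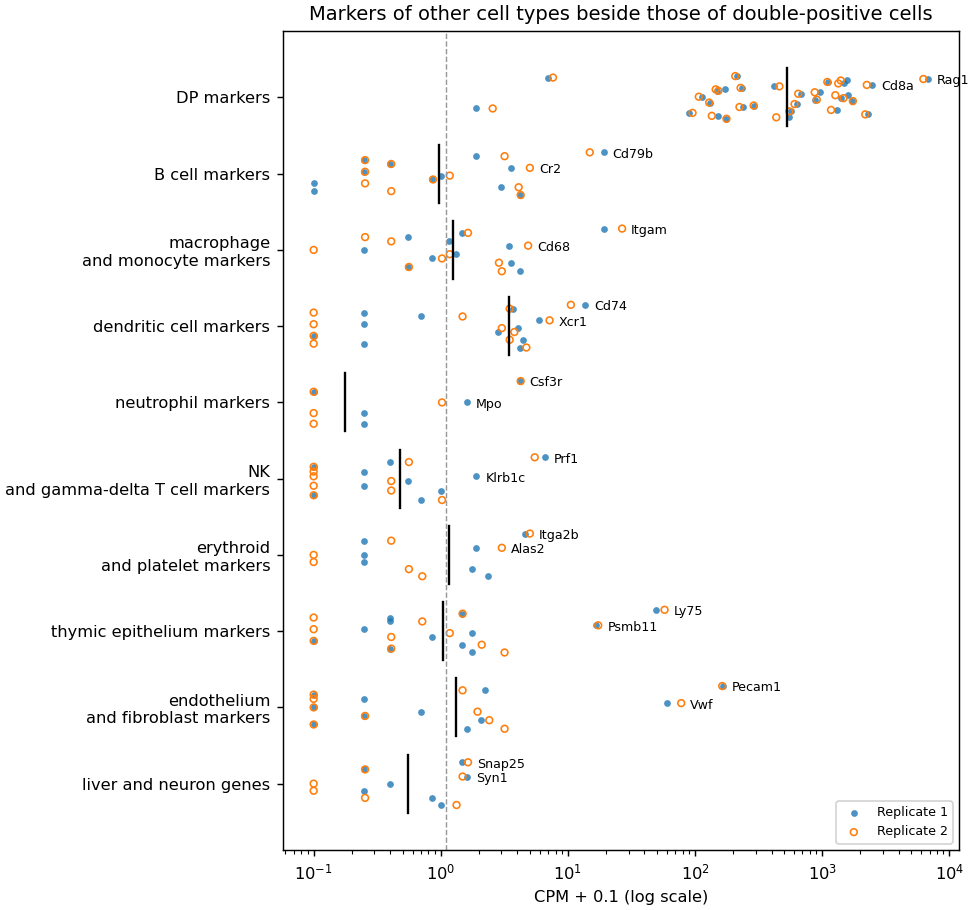
Level of each marker with a row in replicate 1 (filled points) and replicate 2 (open points), as CPM + 0.1 on a log axis. Shown are the double-positive list and 9 lists of other cells, with list medians as black bars and 1 CPM as a dashed line. The median is 529 CPM for the double-positive list and at most 3.31 CPM for the other 9.

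Y-linked genes were expressed in both libraries. Eif2s3y was at 154 and 144 CPM, Uty at 122 and 142 CPM, Ddx3y at 134 and 131 CPM and Kdm5d at 129 and 125 CPM. Xist, the RNA that coats the inactive X chromosome, was at 1.21 and 1.08 CPM.

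The libraries ranked genes alike. Across the 9926 genes that averaged 5 CPM or more, Pearson's r of log2(CPM + 1) was 0.981 and Spearman's rho 0.983, given as a description across genes, which are not independent replicates. The median size of the log2 ratio was 0.15. In edgeR, the common biological coefficient of variation was 12.4%. At least 2-fold apart were 149 genes, or 1.5% of those tested. Replicate 2 was higher in 95 of them (0.957%) and replicate 1 in 54 (0.544%). The number fell to 53 of 7017 genes at 20 CPM or more and to 6 of 2387 at 100 CPM or more. A two-sided exact binomial test on the counts of each gene, with the library totals as the expected share and Benjamini-Hochberg adjustment at 0.05, found 1884 genes (19%) beyond counting error. The chi-square per degree of freedom over the same genes was 9.18, so the pair differed by more than sampling noise. This test compares 2 libraries and says nothing about a condition.

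**Figure D5:**
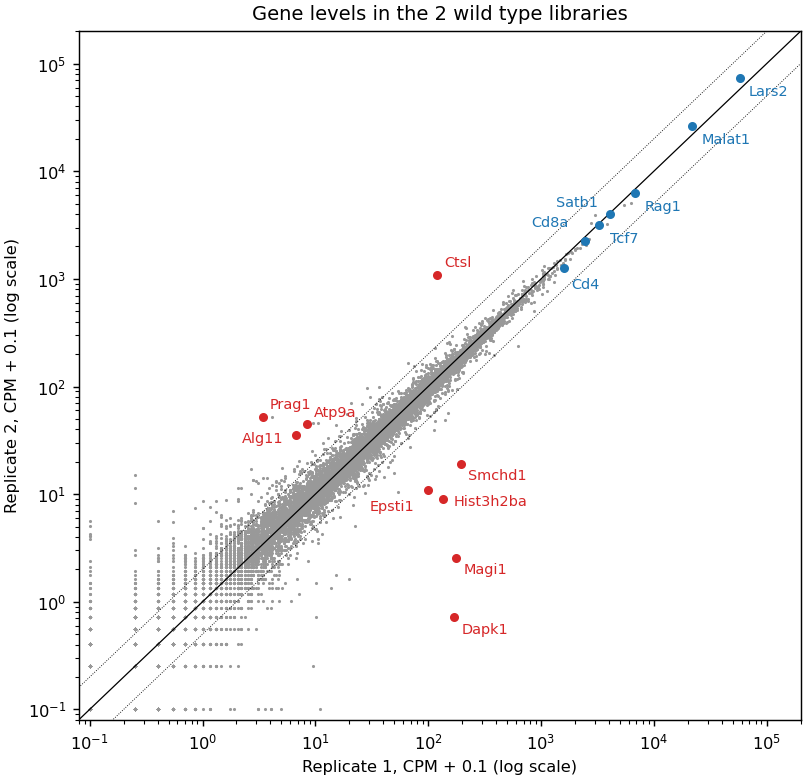
CPM + 0.1 of all 17849 genes in replicate 1 (x) and replicate 2 (y), both on log axes, with equality as a solid line and 2-fold as dotted lines. Thymocyte and top-ranked genes (blue) lie near the line, and 9 of the 10 genes farthest apart among those at 20 CPM or more (red, the unnamed gene left out) lie well off it.

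A few genes lay far apart between the libraries, and 2 well-counted ones, Dapk1 and Magi1, were nearly missing in replicate 2. Dapk1, a death-associated kinase, had 1129 counts in replicate 1 and 4 in replicate 2, or 170.2 and 0.615 CPM, a 277-fold difference. Magi1, a scaffold of cell junctions, had 1170 and 16 counts, a 71.7-fold difference. Hist3h2ba had 899 and 58 counts, Smchd1, a chromatin protein of the inactive X, 1299 and 124, and Epsti1 656 and 71. These 5 were higher in replicate 1. In the other direction, Ctsl, encoding the protease cathepsin L, had 792 and 7115 counts, or 119 and 1094 CPM, a 9.17-fold difference. Prag1 had 22 and 341 counts, the unnamed gene ENSMUSG00000093596 27 and 335, Atp9a 55 and 288, and Alg11 44 and 228. Of these 10 genes, 9 belong to none of the lists described here, and Hist3h2ba is on the histone list. Strain, litter and batch are not in the labels of the RNA samples, and their part in these differences was not tested.

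Place on the chromosome was looked at for the genes 2-fold apart, using the gene order of GRCm38.p6 for neighbours only. Of the 149, 138 could be placed among 9612 tested genes. Of these, 10 were consecutive in the order of the tested genes, in 5 pairs. Genes that were not tested were left out of this order and may lie between the members of a pair. Both members moved the same way in 2 pairs, all 4 genes named after their values were seen. Dnajc15 was at 53.5 and 10.3 CPM and Epsti1 at 98.9 and 10.9 CPM, both higher in replicate 1. Zfp512b was at 36.6 and 97.8 CPM and Samd10 at 5.13 and 13.2 CPM, both higher in replicate 2. In the other 3 pairs (Aim2 and Ifi206, Aaed1 and Ctsl, Abhd17c and Fah) the members moved in opposite directions. The strand setting of the counting was not known, so overlapping or antisense neighbours have uncertain counts.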

How the data were processed

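Total RNA of sorted cells was depleted of ribosomal RNA and made into Illumina libraries, per the labels' protocols. The authors deposited estimated counts, which they call count equivalents, for each Ensembl gene, as whole numbers. Per the submitters' processing notes the genome was mm9. Aligner, counter and strand setting: not given in the sources used here. The table has 2 further columns of per-sample values, the knockout libraries, which were not used. Symbols were found for 17342 of 17849 identifiers, and 16403 had a RefSeq class.

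Counts were scaled to CPM by library total (Python 3.11.15, pandas 2.3.3, SciPy 1.17.1). TMM factors and the dispersion came from edgeR 4.0.16 and size factors from DESeq2 1.42.0 in R 4.3.3. Pairs of libraries were compared with an exact binomial test per gene (SciPy), at a mean of at least 5 CPM. The test was tried on counts simulated with Poisson counting error and planted fold changes. The real pair varied by more than counting error, which the simulation did not cover. Detection means at least 1 CPM in both libraries. No comparison of conditions was made.

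The members and the 34 gene lists were chosen with earlier results of these data known, and 14 gene families after. Genes named are the 12 with the most counts, the 5 farthest apart in each direction at 20 CPM or more, the 4 most abundant of each list, members of other-cell lists at 0, every cohesin, recombination and T lineage or other-fate factor, and the 5 sort markers; others are marked. Some genes that the rule selects are not reported here. Ranking by coding length was planned and not run, because lengths were not used here. Promoter sequences are from RefSeq, GRCm38.p6.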

Additional observations from a re-analysis of the deposited data

How the results depend on the processing

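Genes detected ranged from 9653 (5 CPM in both libraries) to 13284 (3 counts in both), against 12101 as reported, and were 12378 to 12605 with a single library. The 10 most abundant genes held 12.4% of the counts, 11.5% to 13.4% in single libraries, and 4.34% once the 2 genes with the most counts (Lars2 and Malat1) left the total. The number of genes 2-fold apart was 149, 146 to 165 under other scalings, 535 at a mean of at least 1 CPM and 2984 with no filter. Differences beyond counting error numbered 1884, 1901 with TMM totals and 1779 with no filter. Histone genes higher in replicate 1 stayed at 37 of 40 under 3 scalings added after the data were seen. Of 34 list medians, 6 moved by over 1.5 times with a single library, all of lists with medians of at most 2.05 CPM. Leaving out Lars2 and Malat1 from the total raised the other 14 named genes checked by up to 1.1 times. No paired analysis was possible because only the wild type group was used. Rankings and list medians per coding length were not run. Precision is limited by 2 libraries, with 3 counts at 0.452 and 0.461 CPM.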

Other observations

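Gene families picked by name after the data were seen were also read for the same 2 libraries. Of all 17849 genes, 67.8% had at least 1 CPM in both, and the shares of the chemokine receptor, interleukin receptor and integrin families lay near that. Of 17 chemokine receptor genes 11 (64.7%) had at least 1 CPM in both. Ccr9 came first and Cxcr4, which holds cells in the cortex, second at 261 and 272 CPM. Of 23 chemokine genes 5 did. Among 21 interleukin genes 3 did, and Il16 was far above the rest at 584 and 558 CPM. Among 37 interleukin receptor genes 26 (70.3%) did, led by Il4ra at 559 and 498 CPM. Of 30 genes with an integrin name 19 (63.3%) did, led by Itgal, the alpha chain of LFA-1, at 785 and 747 CPM. Itgb1bp1 and Itgb3bp, which are not integrin chains, are among those counted by name. Of 22 Hox genes 6 did, the highest being Hoxc9 at 1.96 and 4.46 CPM.

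Of 101 olfactory, vomeronasal and taste receptor genes, 7 had at least 1 CPM in both libraries and 45 had 0 counts in both. Olfr613 stood apart from the family, with 1171 and 1580 counts or 177 and 243 CPM, and the next gene of the family by mean was Tas1r3 at 9.04 and 10.8 CPM. Among Sox genes, 4 of 11 reached 1 CPM in both, and Sox4 was followed by Sox7 at 2.56 and 3.54 CPM.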
